A study of Mus musculus with 8 samples.

Results

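The mitochondrial genome of the mouse encodes 13 mRNAs, 2 rRNAs and 22 tRNAs, and the levels of these 37 genes were followed in C3H10T1/2 mesenchymal stem cells (MSCs) before and during adipogenic differentiation. The genes were those whose symbol begins with "mt-", and all 37 were found among the 41325 genes measured in each library. C3H10T1/2 is a mouse mesenchymal cell line that can turn into fat cells when treated with MDI, a mixture of insulin, dexamethasone and isobutylmethylxanthine. RNA was sequenced in 8 libraries, 1 for each of 4 lines at day 0, when cells were 2 days past confluence and not yet treated, and at day 5 after the start of treatment. The control line (shControl, labelled wild type) was compared with cells in which an shRNA reduced the demethylase KDM4D (shKDM4D), the transcription factor NFIB (shNFIB) or the methyltransferase MLL1 (shMLL1, gene *Kmt2a*). The knockdown lines were puromycin-resistant clones of cells that carry a pLKO.1 shRNA vector, so each line can also carry differences between clones, and which clone was sequenced is not given in the sources used here. With 1 library per line and day no p-value was computed, and every interval below is an exact 95% interval of the read numbers that covers counting error only.

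Mitochondrial DNA is a small circle that lies in many copies in each cell, outside the nucleus. Both of its strands are transcribed almost whole by the polymerase POLRMT with the factors TFAM and TFB2M, and the long transcripts are cut into mature RNAs, mostly at the tRNAs that lie between the other genes. The 13 mRNAs encode core subunits of the respiratory chain complexes I, III and IV and of the ATP synthase (complex V), the 2 rRNAs form the mitochondrial ribosome, and the 22 tRNAs serve translation within the organelle. In fat cells, mitochondria supply precursors for lipid synthesis, and adipogenesis of mesenchymal cells is known to be accompanied by mitochondrial biogenesis.

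Of the 13 mRNAs, 12 are read from one strand and only *mt-Nd6* from the other. This could be seen in the base composition of the RNAs, taken from GENCODE transcripts of the GRCm38 build. Guanine made up 5.88% to 16.1% of the 12 mRNAs and 28.1% of *mt-Nd6*, whereas cytosine made up 22.1% to 30.0% of the 12 and 5.97% of *mt-Nd6*. The genes are packed so closely that 10 of the 13 mRNAs overlap another mitochondrial gene, 6 of them by more than 5 bases. The overlaps between mRNAs are shown here because reads from shared bases can be counted for either gene. Capitals mark the shared bases, and each sequence is given in the sense of the 12 mRNAs (plus strand), at chrM:7912-7984, chrM:8592-8622, chrM:10152-10188 and chrM:13537-13580.
mt-Atp8/mt-Atp6: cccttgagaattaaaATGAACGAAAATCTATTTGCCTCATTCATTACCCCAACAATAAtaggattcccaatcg
mt-Atp6/mt-Co3: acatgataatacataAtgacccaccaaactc
mt-Nd4l/mt-Nd4: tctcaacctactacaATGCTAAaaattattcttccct
mt-Nd5/mt-Nd6: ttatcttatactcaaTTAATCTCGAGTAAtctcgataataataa
*mt-Atp8* and *mt-Atp6* shared 43 bases, *mt-Nd4l* and *mt-Nd4* shared 7, and *mt-Atp6* and *mt-Co3* shared 1. No tRNA lies between the members of these pairs. *mt-Nd5* and *mt-Nd6* overlap by 14 bases on opposite strands, and since the strand setting of the counting is not given in the sources used here, reads of *mt-Nd6* and of antisense RNA over it cannot be told apart.

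A further property of these mRNAs is that 3 of them end in an unfinished stop codon, which is completed only when a poly(A) tail is added. Their last bases on the plus strand, chrM:9372-9390, chrM:11526-11544 and chrM:15270-15288, show the single T of the stop codon in capitals.
mt-Co3 end: atttattgatgaggatctT
mt-Nd4 end: attacaggcctgacaataT
mt-Cytb end: atactaaaattatatccaT
The lengths of these 3 genes, 784, 1378 and 1144 bases, were the only ones among the 13 that were not multiples of 3.

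Recovered read numbers gave 15842221 to 38202580 mapped reads per library. The levels of the targets were as follows: *Nfib* was at 2.31 RPKM in shNFIB cells and 9.92 in shControl cells at day 0, and *Kmt2a* at 2.00 RPKM in shMLL1 cells and 5.17 in shControl cells. *Kdm4d* had 1 read in shKDM4D cells and 2 in shControl cells at day 0, which is too few to show a difference, and 4 and 13 reads at day 5, a log2 ratio of -1.86 (-3.94 to -0.17). The mesenchymal markers *Col1a1*, *Col1a2*, *Pdgfra*, *Pdgfrb*, *Vim* and *Fn1* were at 12.9 RPKM or above in every library, but *Thy1*, at 11.1 to 25.01 RPKM in shControl and shMLL1 cells, was at or below 0.139 RPKM in all 4 libraries of shKDM4D and shNFIB cells. Whether the 4 lines came from the same stock of cells is not given in the sources used here, and a difference between stocks or clones cannot be told apart from the knockdown in any ratio of a line over shControl. The sum of 6 adipocyte markers (*Fabp4*, *Adipoq*, *Plin1*, *Cidec*, *Lpl*, *Cfd*) was at most 0.702 RPKM at day 0. At day 5 it was 796, 25.5, 0.936 and 2.86 RPKM for the shControl, shKDM4D, shNFIB and shMLL1 lines. Of the defining blood, endothelial, epithelial and muscle markers, *Cd3e*, *Epcam* and *Myod1* were at 0 in all 8 libraries, and the summed level of each of these 4 lists stayed at or below 1.81 RPKM.

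The mitochondrial mRNAs were among the most abundant RNAs of every library. RPKM, a read number scaled to the length of the gene and to the mapped reads of the library, allows levels to be compared between genes, and between 11 and 13 of the mRNAs were among the 100 genes with the highest RPKM in each library. In order of median RPKM over the 8 libraries, *mt-Atp6* (3245) came first, followed by *mt-Atp8* (2672), *mt-Co1* (2496), *mt-Nd1* (1907), *mt-Cytb* (1774), *mt-Co2* (1469), *mt-Co3* (1274), *mt-Nd2* (1061), *mt-Nd6* (868), *mt-Nd4* (863), *mt-Nd5* (806), *mt-Nd4l* (519) and *mt-Nd3* (398). *mt-Atp6* was above *mt-Atp8*, *mt-Co1* above *mt-Nd1*, *mt-Nd5* above *mt-Nd4l* and *mt-Nd4l* above *mt-Nd3* in 8 of 8 libraries. *mt-Atp8* and *mt-Co1* changed places, each being higher in 4 libraries, and the order of *mt-Nd6*, *mt-Nd4* and *mt-Nd5* also varied, with *mt-Nd6* above *mt-Nd4* and *mt-Nd4* above *mt-Nd5* in 5 of 8 libraries each. Each mRNA varied between 1.72-fold (*mt-Co3*) and 2.17-fold (*mt-Nd1*) from its lowest to its highest library. The lowest library was day 0 shControl cells or day 5 shMLL1 cells for all 13 mRNAs but *mt-Co1*, which was lowest in day 0 shNFIB cells.

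**Figure D1:**
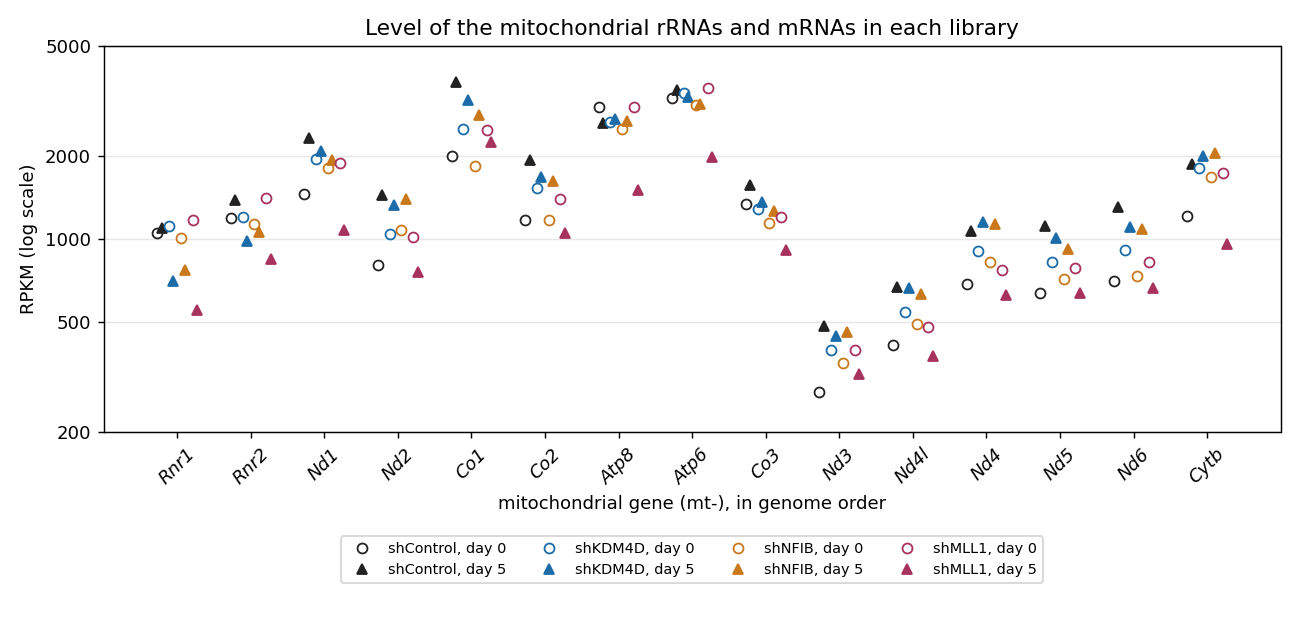
RPKM (log scale) of the 2 rRNAs and 13 mRNAs in genome order, 1 point for each of the 8 libraries; open circles are day 0 and filled triangles day 5. *mt-Atp6*, *mt-Atp8* and *mt-Co1* lie highest and *mt-Nd3* lowest, and the filled triangle of shMLL1 is the lowest point for *mt-Nd1*, *mt-Atp8*, *mt-Atp6*, *mt-Co3*, *mt-Cytb* and both rRNAs, among others.

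Nuclear DNA holds copies of parts of the mitochondrial genome, and reads of such copies cannot be told apart from mitochondrial ones where the sequences match. A stretch of chromosome 1 (chr1:24611535-24616197, minus strand) is annotated with 7 pseudogenes that match 7 of the 13 mRNAs at 99% identity or more: *mt-Co1*, *mt-Co2*, *mt-Atp6*, *mt-Co3*, *mt-Nd3*, *mt-Nd4l* and *mt-Nd4*. *Gm10925* matched *mt-Atp6* over 678 of its 681 bases with 100% identity, and *Gm28437* matched *mt-Co3* over 783 of 784 bases with 100% identity. *Gm29216* matched 483 of the 1545 bases of *mt-Co1* with 99.8% identity. The pseudogenes were not listed among the genes measured, so no level of them could be given. How reads with several matches were assigned is not given in the sources used here, so the levels of these 7 mRNAs are uncertain. The other 6 mRNAs had no match at that identity. Of these, *mt-Nd2*, *mt-Nd5*, *mt-Nd6* and *mt-Cytb* matched annotated pseudogenes less closely, at best at 96.7%, 95.2%, 93.6% and 92.9% identity. The medians of the 7 and of the 6 mRNAs are given with each comparison below.

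The share of mapped reads that fell on the 13 mRNAs was smallest in shMLL1 cells at day 5 and largest in shControl cells at day 5. In shControl cells it was 1.41% at day 0 (interval 1.40% to 1.41%) and 2.16% at day 5 (2.15% to 2.17%). The shKDM4D line had 1.73% at day 0 and 1.99% at day 5, and the shNFIB line 1.501% and 1.89%. Only in shMLL1 cells was the later share the smaller one, with 1.68% at day 0 (1.68% to 1.68%) and 1.21% at day 5 (1.20% to 1.21%). In bulk RNA, fewer cells of a type and less of an RNA per cell cannot be told apart. RNA of nuclear rRNA-like genes (*AY036118* and *CT010467.1*) moved with the day, making up 7.95% to 10.5% of reads at day 0 and 3.07% to 3.62% at day 5. Per nuclear protein coding read, which leaves that RNA out, the shares moved the same way: the mRNAs had 1.66 reads per 100 such reads at day 0 and 2.39 at day 5 in shControl cells, and 1.97 and 1.32 in shMLL1 cells.

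**Figure D2:**
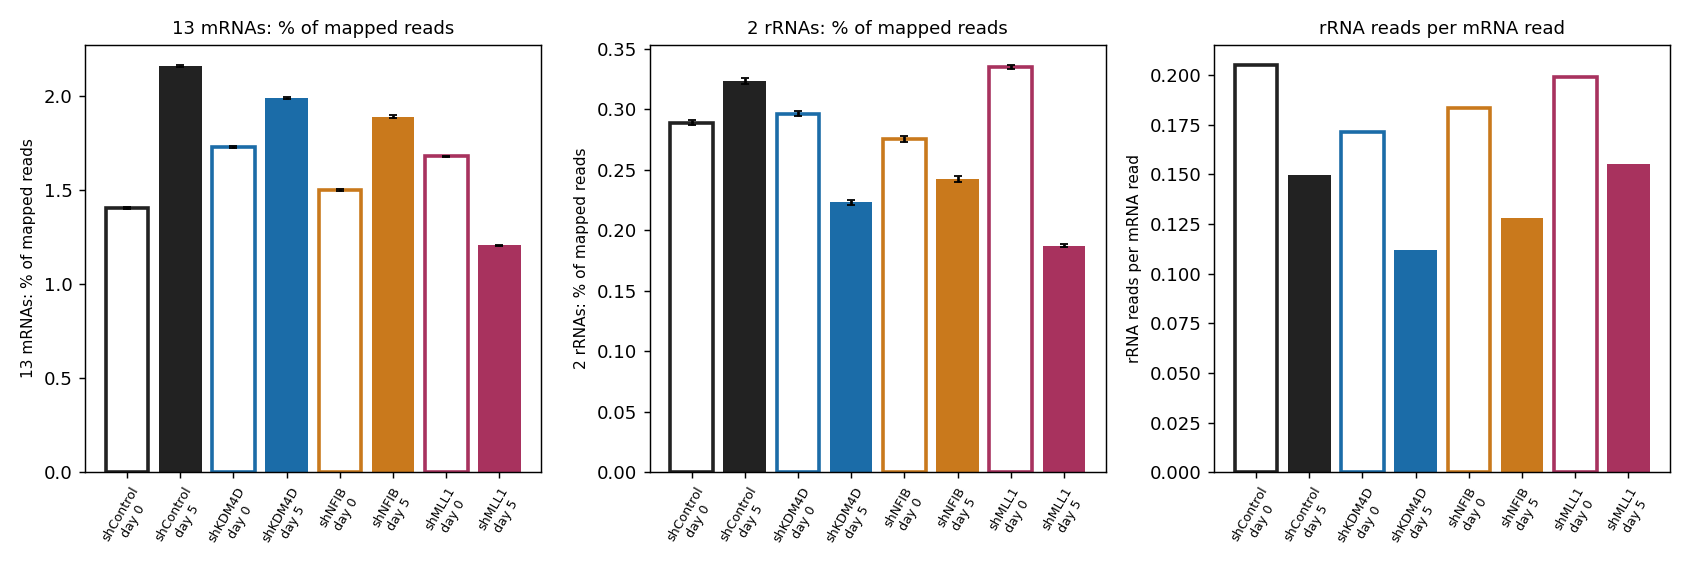
Share of mapped reads (%) on the 13 mRNAs (left) and the 2 rRNAs (centre), with exact 95% intervals, and rRNA reads per mRNA read (right), for the 8 libraries; open bars are day 0 and filled bars day 5. The mRNA share is higher at day 5 than at day 0 in shControl, shKDM4D and shNFIB cells and lower in shMLL1 cells, and the ratio of rRNA to mRNA reads is lower at day 5 in all 4 lines.

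In the control line most mitochondrial mRNAs were higher at day 5 of adipogenic differentiation than at day 0. From day 0 to day 5 the median log2 ratio of the 13 mRNAs in shControl cells was 0.71 (interval of the median gene, *mt-Nd4l*, 0.64 to 0.77), while the median of all genes above 1 RPKM was 0.03. None of the 13 was past 2-fold, a change that 21.6% of all genes made in either direction, and 10 of 13 were higher by more than 1.5-fold, against 22.7% of all genes. The 10 were *mt-Co1*, *mt-Nd6*, *mt-Nd2*, *mt-Nd5*, *mt-Nd3*, *mt-Co2*, *mt-Nd4l*, *mt-Nd1*, *mt-Nd4* and *mt-Cytb*, with log2 ratios between 0.62 and 0.89, and they were higher under each of the 5 other scalings of the values as well. Together with the 3 others they are listed here by the complex they belong to.

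Complex I, the NADH dehydrogenase that feeds electrons into the chain, takes 7 of the mRNAs. *mt-Nd1*, the subunit that helps form the quinone site, was at 1459 RPKM at day 0 and 2331 at day 5 in shControl cells, 1948 and 2085 with shKDM4D, 1810 and 1935 with shNFIB and 1878 and 1077 with shMLL1. It was thus higher at day 5 in 3 lines and lower in the fourth, with log2 ratios of 0.68, 0.10, 0.10 and -0.80 in that order, although the small value in shNFIB cells turned to -0.16 under quantile normalization (levels matched by rank across libraries) and -0.47 relative to *Gapdh*. *mt-Nd2*, *mt-Nd4* and *mt-Nd5*, which are related to one another and form proton-pumping units of the membrane arm, had log2 ratios of 0.85, 0.64 and 0.80 in shControl cells. Their log2 ratios were 0.35, 0.36 and 0.29 in shKDM4D cells and -0.42, -0.29 and -0.30 in shMLL1 cells. With shNFIB they were 0.37, 0.47 and 0.36, and -0.19, -0.10 and -0.20 relative to *Gapdh*. *mt-Nd6*, the one mRNA of the other strand, was at 708 and 1312 RPKM in shControl cells, 912 and 1111 with shKDM4D, 738 and 1084 with shNFIB and 824 and 667 with shMLL1. Its log2 ratios were 0.89, 0.28, 0.55 and -0.31, beside 0.80, 0.29, 0.36 and -0.30 for the neighbouring *mt-Nd5*. The remaining members of the complex, *mt-Nd3* and *mt-Nd4l*, had the lowest levels of all 13, at 279 to 487 RPKM and 376 to 673 RPKM over the 8 libraries. Their log2 ratios were 0.80 and 0.71 in shControl cells, 0.16 and 0.29 with shKDM4D, 0.38 and 0.36 with shNFIB and -0.28 and -0.36 with shMLL1.

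Complex III, which passes electrons to cytochrome c, has a single member, *mt-Cytb*, the apocytochrome b. It was at 1216 RPKM at day 0 and 1868 at day 5 in shControl cells, 1809 and 2002 with shKDM4D, 1678 and 2057 with shNFIB and 1739 and 960.4 with shMLL1. The day 0 level of shControl cells lay below those of the 3 other lines, and the day 5 level of shMLL1 cells was the lowest of all 8. The log2 ratios of day 5 over day 0 were 0.62, 0.15, 0.29 and -0.86.

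Complex IV, the cytochrome c oxidase, has its 3 catalytic core subunits encoded here. *mt-Co1*, the subunit that holds the site of oxygen reduction, was at 1997 and 3709 RPKM in shControl cells, 2512 and 3179 with shKDM4D, 1844 and 2812 with shNFIB and 2479 and 2241 with shMLL1. It had the largest log2 ratio of the 13 in shControl cells (0.89, interval 0.88 to 0.91) and in shNFIB cells (0.61, 0.59 to 0.62), and the one nearest to 0 in shMLL1 cells (-0.15, -0.16 to -0.14). *mt-Co2*, which takes the electrons from cytochrome c, had log2 ratios of 0.73, 0.13, 0.48 and -0.41 in shControl, shKDM4D, shNFIB and shMLL1 cells. *mt-Co3*, the third core subunit, stood apart from both in shControl cells, at 1346 RPKM at day 0 and 1566 at day 5, a log2 ratio of 0.22 (0.19 to 0.24).

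Complex V, the ATP synthase, takes *mt-Atp8* and *mt-Atp6*, which encode parts of its membrane sector. *mt-Atp6* was at 3230 and 3454 RPKM in shControl cells, 3384 and 3261 with shKDM4D, 3059 and 3075 with shNFIB and 3525 and 1976 with shMLL1. Apart from the last one, these levels lay between 3059 and 3525 RPKM. *mt-Atp8* was at 3012 and 2642 RPKM in shControl cells, 2658 and 2730 with shKDM4D, 2510.5 and 2686 with shNFIB and 3017 and 1503 with shMLL1, and again only the day 5 level of shMLL1 cells lay apart. The log2 ratios of *mt-Atp8* were -0.19, 0.04, 0.10 and -1.01, and those of *mt-Atp6* were 0.10, -0.05, 0.01 and -0.84. Values this near 0 changed sign with the scaling, as *mt-Atp6* did in shControl cells (-0.33 under quantile normalization) and *mt-Atp8* in shKDM4D and shNFIB cells (-0.22 and -0.47).

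The neighbouring genes *mt-Atp8*, *mt-Atp6* and *mt-Co3*, which follow one another without a tRNA between them as the first overlaps above show, therefore set themselves apart from the other 10 mRNAs in the control line. This group was singled out after its values were seen. In shControl cells their log2 ratios ran from -0.19 to 0.22 and those of the other 10 from 0.62 to 0.89, so that the ranges did not meet. In shKDM4D cells the ranges were -0.05 to 0.08 and 0.10 to 0.36, and in shNFIB cells they met, at 0.01 to 0.14 and 0.10 to 0.61. The gap in shKDM4D cells was within counting error, with *mt-Co3* at 0.08 (0.06 to 0.11) and *mt-Nd1* at 0.10 (0.08 to 0.12). Under quantile normalization the ranges met there too, with *mt-Co3* at 0.066 and *mt-Nd6* at 0.043. In shMLL1 cells they overlapped, from -1.01 to -0.40 and from -0.86 to -0.15. As a share of all mitochondrial mRNA reads, the 3 genes made up at day 0 27.5%, 22.2%, 23.3% and 23.6% for the shControl, shKDM4D, shNFIB and shMLL1 lines. At day 5 the shares were 19.1%, 19.3%, 19.2% and 19.6%, with intervals no wider than 0.313 percentage points at either day. The 4 lines thus lay within 0.533 points of one another at day 5 and 5.25 points apart at day 0, and every day 0 share was above every day 5 share. The ratio of *mt-Co1* to *mt-Co3* in RPKM moved the other way, from 1.48 to 2.37 in the control line, 1.96 to 2.34 with shKDM4D, 1.61 to 2.22 with shNFIB and 2.06 to 2.46 with shMLL1. A close nuclear copy is annotated for *mt-Atp6* and *mt-Co3* but not for *mt-Atp8*, and it is also annotated for *mt-Co1*.

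**Figure D3:**
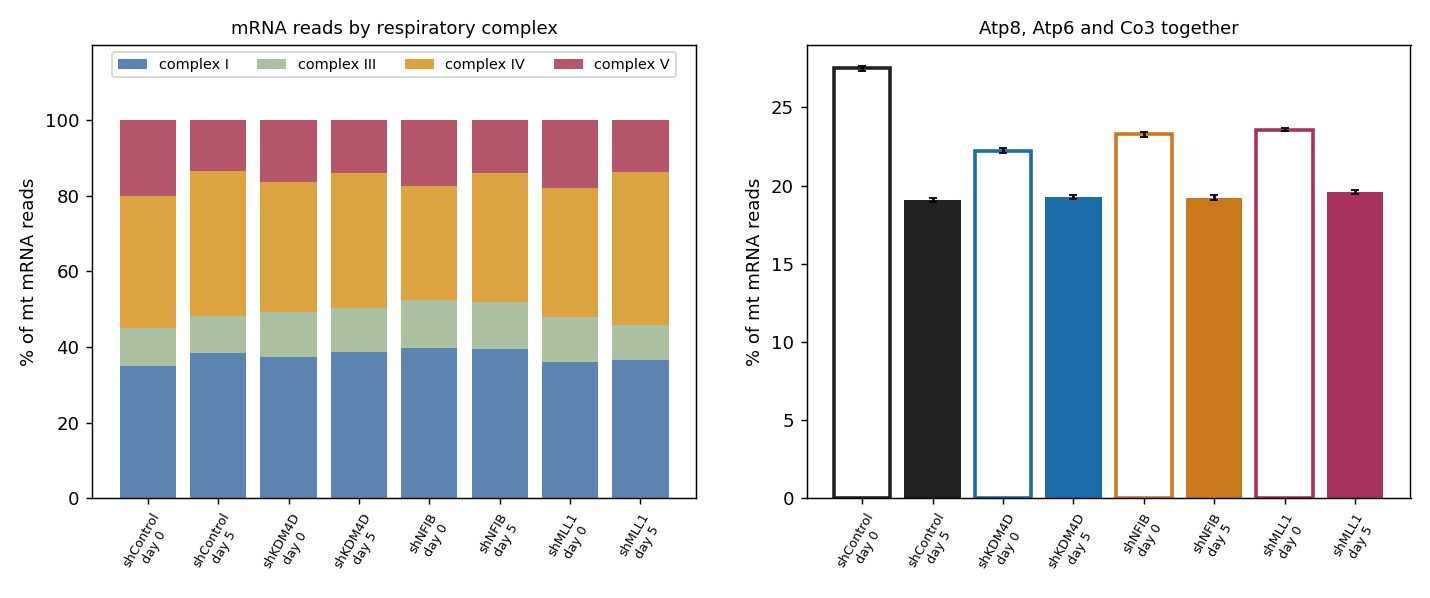
Mitochondrial mRNA reads of each library split by respiratory complex (left, % of mitochondrial mRNA reads) and the share on *mt-Atp8*, *mt-Atp6* and *mt-Co3* together (right, with exact 95% intervals; open bars day 0, filled bars day 5). Complex V takes 16.4% to 19.99% of the reads at day 0 and 13.4% to 13.97% at day 5, and the 3 neighbouring genes take 19.1% to 19.6% in the day 5 libraries.

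The change with differentiation was smaller in shKDM4D and shNFIB cells, though relative to *Gapdh* the medians were 0.63 with shKDM4D and 0.73 with shControl, and that with shNFIB was below 0. It had the opposite sign in shMLL1 cells. In shKDM4D cells the median log2 ratio of day 5 over day 0 was 0.16 (interval of *mt-Nd3*, 0.09 to 0.24) for the 13 mRNAs and 0.03 for all genes. None of the mRNAs was past 2-fold, against 21.2% of all genes, and none was higher by 1.5-fold, against 21.9%. In shNFIB cells the median was 0.36 (interval of *mt-Nd5*, 0.34 to 0.39), beside 0.10 or less for *mt-Nd1*, *mt-Atp8* and *mt-Atp6*, and the median turned to -0.20 when levels were taken relative to *Gapdh*, where 12 of the 13 mRNAs were below 0. None of the 13 was past 2-fold, against 17.6% of all genes, and *mt-Co1* alone was higher by 1.5-fold, against 22.4%. In shMLL1 cells all 13 mRNAs were lower at day 5, with a median of -0.40 (interval of *mt-Co3*, -0.42 to -0.38), where all genes had a median of 0.17. Each of the 13 was lower under every other scaling tried.

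In shMLL1 cells 1 of the 13 mRNAs, *mt-Atp8*, fell past 2-fold, against 27.3% of all genes in either direction, and its log2 ratio of -1.01 (interval -1.04 to -0.97) became -0.96 under quantile normalization. By the 1.5-fold limit 4 of 13 fell, *mt-Atp8*, *mt-Cytb*, *mt-Atp6* and *mt-Nd1*, against 15.6% of all genes that were lower by that much. The 9 others had log2 ratios between -0.42 and -0.15. The medians of the 7 mRNAs with and the 6 without a close nuclear copy parted in this line, at -0.36 and -0.61. They lay closer together in shControl cells, at 0.71 and 0.74, in shKDM4D cells, at 0.16 and 0.22, and in shNFIB cells, at 0.38 and 0.33.

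**Figure D4:**
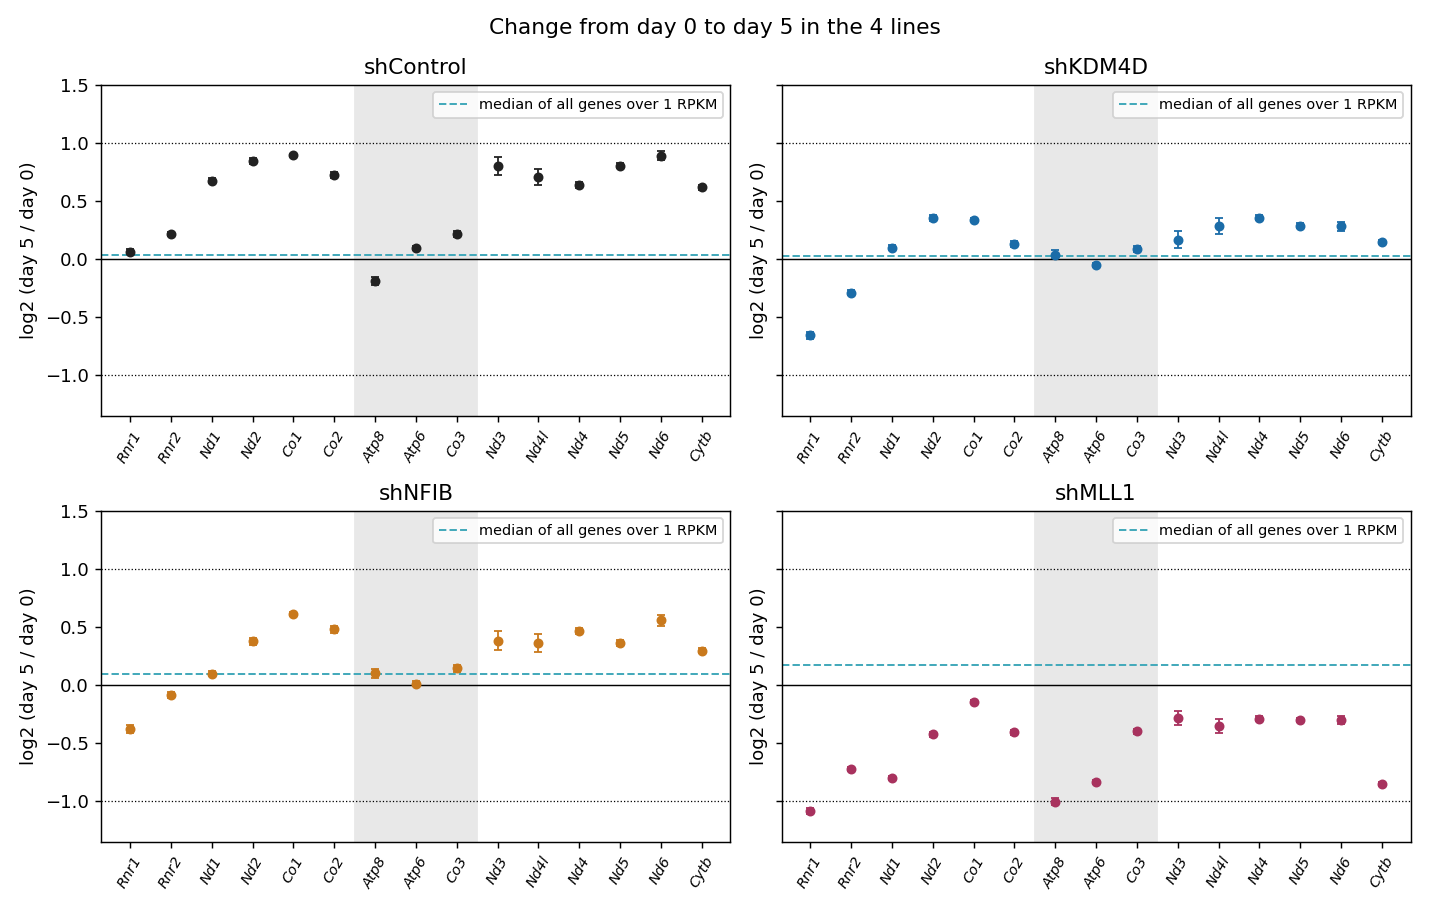
Log2 ratio of day 5 over day 0 for the 2 rRNAs and 13 mRNAs in genome order, 1 panel for each line, with exact 95% intervals of the read numbers; dotted lines mark 2-fold, the dashed line the median of all genes above 1 RPKM, and the shaded band *mt-Atp8*, *mt-Atp6* and *mt-Co3*. In shControl cells 10 mRNAs lie between 0.62 and 0.89 with the shaded genes and the rRNAs below them, and in shMLL1 cells all 15 genes lie below 0.

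Gene by gene, the change in a knockdown line could be set against that in shControl cells, as the difference of the log2 ratios of day 5 over day 0. This difference was negative for 13 of 13 mRNAs in shMLL1 cells, with a median of -1.09 and a range from -1.48 (*mt-Nd1*) to -0.62 (*mt-Co3*), while the median of all genes was 0.15. In shKDM4D cells it was negative for 12 of 13 mRNAs, with a median of -0.49, and in shNFIB cells for 12 of 13, with a median of -0.33. The exception in both was *mt-Atp8*, at 0.23 and 0.29. Relative to *Gapdh* the number below 0 was 8 of 13 in shKDM4D cells, with a median of -0.054, and 13 of 13 in both other lines. The 3 differences share both shControl libraries, and with 1 library for each line and day they were not tested.

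At day 0 the mitochondrial mRNAs of the knockdown lines differed from the control by less than 1.5-fold. The median log2 ratio over shControl was 0.37 in shKDM4D cells (interval of *mt-Nd5*, 0.35 to 0.40), 0.17 in shNFIB cells (interval of *mt-Nd5*, 0.15 to 0.20) and 0.26 in shMLL1 cells (interval of *mt-Co2*, 0.24 to 0.29), and relative to *Gapdh* these medians were -0.03, 0.81 and 0.05. All 3 comparisons share the shControl library. No mRNA was past 2-fold in any of them, against 6.24% of all genes for shKDM4D, 9.00% for shNFIB, and 9.09% for shMLL1 cells. *mt-Cytb* had the largest log2 ratio in each of them, 0.57, 0.46 and 0.52. *mt-Co3* had log2 ratios of -0.07, -0.23 and -0.16, and *mt-Atp8* of -0.18, -0.26 and 0.00, where the shNFIB values of both turned relative to *Gapdh*, to 0.41 and 0.38. These values and the 27.5% share given above both rest on the single day 0 library of shControl cells. The median of the 7 mRNAs with a close nuclear copy was 0.39 with shKDM4D, 0.00091 with shNFIB and 0.22 with shMLL1, and that of the 6 others 0.37, 0.24 and 0.32.

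By day 5 the mRNAs of the shKDM4D and shNFIB lines were close to the control, and those of the shMLL1 line were lower throughout. In shKDM4D cells the median log2 ratio over shControl was -0.13 (interval of *mt-Nd3*, -0.20 to -0.06) with a range from -0.24 (*mt-Nd6*) to 0.11 (*mt-Nd4*). In shNFIB cells the median was -0.17 (interval of *mt-Atp6*, -0.19 to -0.15) with a range from -0.40 (*mt-Co1*) to 0.14 (*mt-Cytb*). *mt-Nd4* and *mt-Cytb* were above the control in both lines, by 0.11 and 0.10 in shKDM4D and by 0.08 and 0.14 in shNFIB cells on the log2 scale, although *mt-Nd4* in shNFIB cells came to -0.0013 with median-of-ratios scaling. *mt-Atp8* was at 0.05 and 0.02, the latter turning to -0.24 under quantile normalization. The 7 mRNAs with a close nuclear copy and the 6 without had medians of -0.13 and -0.13 with shKDM4D and -0.17 and -0.16 with shNFIB. No mRNA was past 2-fold in either line, against 6.44% of all genes in shKDM4D and 11.2% in shNFIB cells.

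In shMLL1 cells at day 5, all 13 mRNAs were below the shControl level, with a median log2 ratio of -0.81 (interval of *mt-Atp8*, -0.85 to -0.78), where all genes had a median of 0.07. The values ran from -1.11 for *mt-Nd1* (-1.13 to -1.09) to -0.58 for *mt-Nd3* (-0.64 to -0.51), and all 13 stayed below 0 under each scaling tried. Past 2-fold was 1 of 13, *mt-Nd1*, against 9.28% of all genes in either direction, and 12 of 13 were lower by 1.5-fold, against 8.76% of all genes. The call of *mt-Nd1* ended under quantile normalization, at -0.80, where *mt-Nd4l* was the 1 past 2-fold, at -1.06, and the count was 3 of 13 with median-of-ratios scaling and 12 of 13 relative to *Gapdh*. The median was -0.78 for the 7 mRNAs with a close nuclear copy and -0.95 for the 6 without. *mt-Atp8*, *mt-Atp6* and *mt-Co3* did not stand apart here, at -0.81, -0.81 and -0.78 beside -1.11 to -0.58 for the other 10. The summed adipocyte markers were 796 RPKM in the shControl and 2.86 in the shMLL1 library of this comparison, but also 0.936 in the shNFIB library, whose mRNAs lay closer to the control. Their part in the result was not tested.

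**Figure D5:**
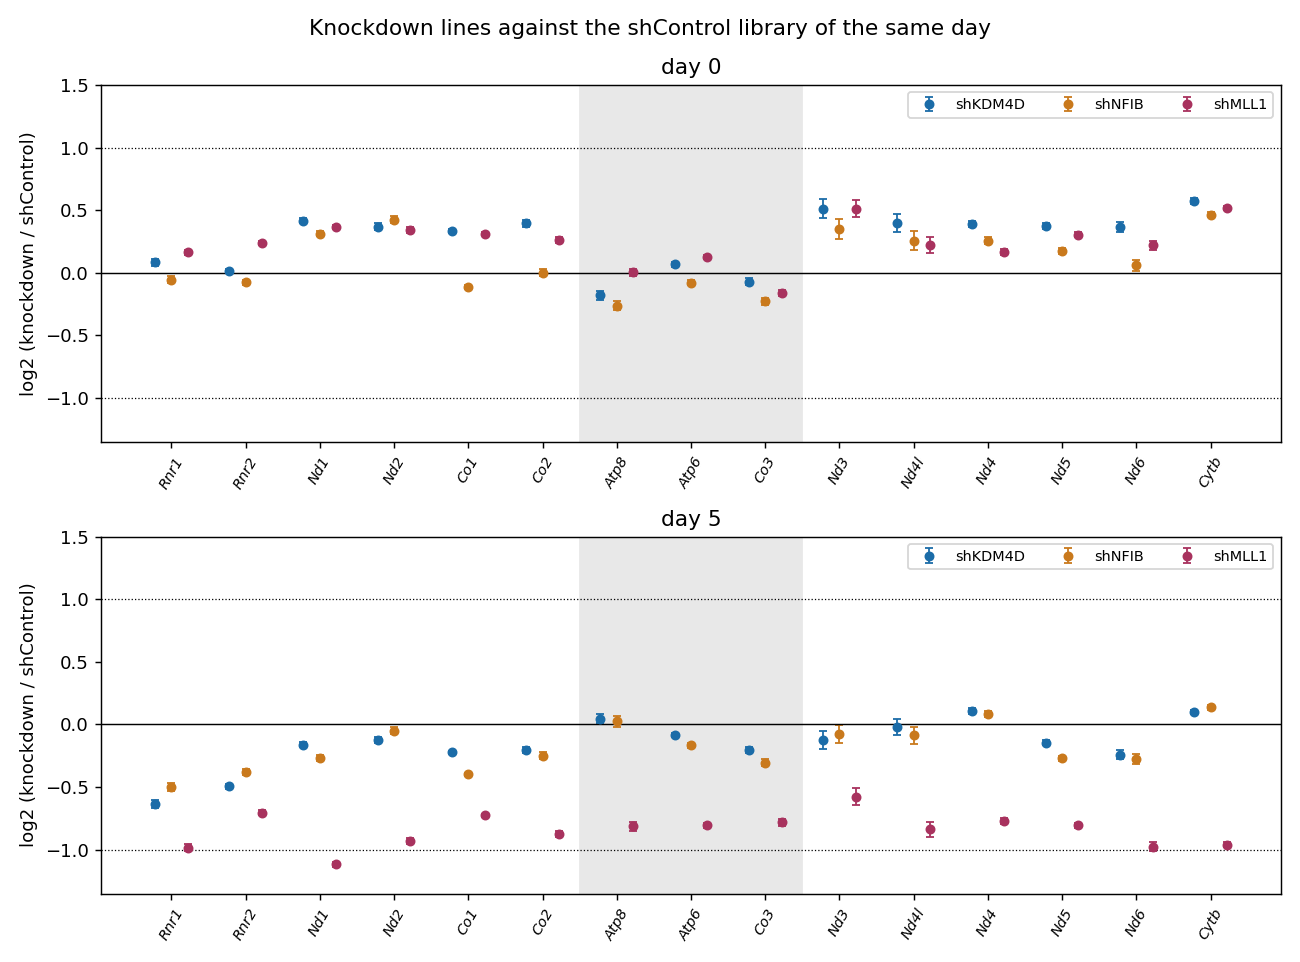
Log2 ratio of each knockdown line over the shControl library of day 0 (top) and day 5 (bottom) for the 2 rRNAs and 13 mRNAs in genome order, with exact 95% intervals of the read numbers; dotted lines mark 2-fold and the shaded band *mt-Atp8*, *mt-Atp6* and *mt-Co3*. At day 5 the shMLL1 points lie between -1.11 and -0.58, below those of the other lines for every gene.

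The 2 rRNAs, which have no protein product and form the small (*mt-Rnr1*, 12S) and large (*mt-Rnr2*, 16S) subunits of the mitochondrial ribosome, had smaller ratios of day 5 over day 0 than the median mRNA in each line. They lie first in the transcript, at chrM:70-1024 and chrM:1094-2675, and are separated by *mt-Tv*. *mt-Rnr1* was at 1050.1 RPKM at day 0 and 1094 at day 5 in shControl cells, 1111 and 705 with shKDM4D, 1011 and 775 with shNFIB and 1175 and 553 with shMLL1. The 4 day 0 levels lay between 1011 and 1175 RPKM, and at day 5 the control line was above the 3 others. *mt-Rnr2* was at 1192 and 1386 RPKM in shControl, 1203 and 984 in shKDM4D, 1132 and 1064 in shNFIB and 1406 and 850.0 in shMLL1 cells.

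From day 0 to day 5 the log2 ratio of *mt-Rnr1* was 0.06 (interval 0.03 to 0.08), -0.66 (-0.69 to -0.63), -0.38 (-0.42 to -0.35) and -1.09 (-1.11 to -1.06) for the shControl, shKDM4D, shNFIB and shMLL1 lines, and the small value in shControl cells turned to -0.19 under quantile normalization. That of *mt-Rnr2* was 0.22, -0.29, -0.09 and -0.73, and in shKDM4D cells it turned to 0.18 relative to *Gapdh*. In shMLL1 cells *mt-Rnr1* fell past 2-fold under each of the scalings. The rRNA reads per mRNA read went from 0.205 to 0.150 in the control line, 0.171 to 0.112 with shKDM4D, 0.184 to 0.128 with shNFIB and 0.199 to 0.155 with shMLL1. This ratio is taken within a library and does not change with a factor applied to the whole library. All 4 day 0 values were above all 4 day 5 values. The share of nuclear rRNA-like reads parted in the same way, at 7.95% to 10.5% at day 0 and 3.07% to 3.62% at day 5. A difference between the days in how rRNA entered the libraries cannot be told apart from one in the cells. The log2 ratio of the summed rRNA reads over shControl at day 5 was -0.54, -0.42 and -0.79 for the shKDM4D, shNFIB and shMLL1 lines, and it was below 0 under each scaling. At day 0 it was 0.04, -0.07 and 0.21, of which the first turned to -0.36 and the second to 0.57 relative to *Gapdh*.

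The tRNAs were close to unmeasured. The 22 genes, of 59 to 75 bases each, had 12 reads in all over the 8 libraries, and 14 of them had no read in any library. The largest number for a tRNA in a library was 3 reads, for *mt-Td* (tRNA-Asp) in day 0 shControl cells. No tRNA read was found in shKDM4D cells at either day, in shNFIB cells at day 0 or in shMLL1 cells at day 0, and since 3 reads is the limit that a count of 0 allows, this means a share of up to 1.54e-05%, 1.39e-05%, 1.61e-05% and 7.85e-06% of mapped reads. No tRNA passed 3 reads in any library, so no ratio between libraries was taken. To show how short these genes are and where they lie, *mt-Tv* (tRNA-Val, chrM:1025-1093), which had no reads although *mt-Rnr1* beside it had at least 11725 reads in each library, and *mt-Td* (chrM:6942-7011), which had the most in a single library, are printed in full with the anticodon in capitals.
mt-Tv: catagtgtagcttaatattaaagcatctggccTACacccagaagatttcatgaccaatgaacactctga
mt-Td: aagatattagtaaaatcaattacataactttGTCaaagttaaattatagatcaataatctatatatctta
Of the 22 tRNAs, 14 lie on the strand of the 12 mRNAs and 8 on the other.

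Most genes of the nucleus whose products copy mitochondrial DNA or make and process its RNA stayed within 2-fold. A list of 41 such genes was used, of which 40 were found by symbol, and all 40 were above 1 RPKM in at least 1 library. In shControl cells their median log2 ratio of day 5 over day 0 was -0.04, and 6 of 40 passed 2-fold, 3 higher and 3 lower. In shKDM4D cells the median was -0.16 and 2 were higher, in shNFIB cells 0.07 and 2 were higher, and in shMLL1 cells 0.12, with 5 higher and 3 lower. The share past 2-fold was thus below the background given above in all 4 lines. Over the 8 libraries *Tfam*, which packs and transcribes mitochondrial DNA, was at 8.14 to 12.4 RPKM and *Tfb2m* at 6.05 to 9.16. *Polrmt*, the polymerase, was at 5.13 RPKM at day 0 and 3.56 at day 5 in shControl cells, 4.59 and 3.32 with shKDM4D, 4.96 and 4.002 with shNFIB and 6.68 and 3.83 with shMLL1. Its day 5 levels were all below its day 0 levels, by less than 2-fold in each line.

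The member with the largest ratio in each line was *Ppargc1a* (PGC-1α), a coactivator known for its role in mitochondrial biogenesis. It was at 0.376 RPKM at day 0 and 2.00 at day 5 in shControl cells, 0.0466 and 1.32 in shKDM4D, 0.171 and 1.83 in shNFIB, and 0.282 and 4.01 in shMLL1 cells. All 4 day 5 levels were higher, with log2 ratios of 2.41 (2.02 to 2.83), 4.82 (3.67 to 6.29), 3.42 (2.77 to 4.15) and 3.83 (3.48 to 4.20), the mitochondrial mRNAs being lower at day 5 in the last line. *Pprc1*, a related coactivator, fell in shControl cells from 5.39 to 2.07 RPKM and in shMLL1 cells from 8.03 to 3.91 RPKM. By less than 2-fold it also fell in shKDM4D cells, from 5.78 to 3.29, and in shNFIB cells, from 7.69 to 4.58. *Tbrg4*, a FASTK family protein that acts on mitochondrial RNA, fell in shMLL1 cells from 6.65 to 2.97 RPKM. In shControl cells it fell as well, from 5.55 to 2.60 RPKM. So it did in shKDM4D cells, from 4.43 to 2.57, and in shNFIB cells, from 2.90 to 2.00. *Tefm*, the elongation factor of mitochondrial transcription, rose in shMLL1 cells from 3.43 to 7.08 RPKM. It rose in the other lines as well, from 3.37 to 5.87 in shControl, 2.80 to 3.59 in shKDM4D and 2.83 to 5.43 in shNFIB cells. Of the MTERF family, which binds mitochondrial DNA or ribosomes, *Mterf1b* rose past 2-fold in shControl, shKDM4D and shNFIB cells on 12 to 42 reads a library. *Mterf1a* and *Mterf2* rose past 2-fold in shMLL1 cells, with log2 ratios of 1.13 and 1.08. In the remaining lines these genes were higher at day 5 too, by less than 2-fold, with *Mterf1b* at 0.689 and 1.34 RPKM in shMLL1 cells. *Polg2*, the accessory subunit of the mitochondrial DNA polymerase, rose in shControl cells from 0.543 to 1.26 RPKM, and *Fastkd3* fell there from 1.53 to 0.596 RPKM. In shMLL1 cells *Polg2* likewise rose, from 0.517 to 1.04 RPKM, and *Fastkd3* fell from 1.67 to 0.826 RPKM. *Polg2* was also higher at day 5 in shKDM4D cells (0.576 and 0.966 RPKM) and in shNFIB cells (0.529 and 0.710). *Fastkd3* was lower at day 5 in both of these lines, at 1.51 and 0.959 RPKM with shKDM4D and 1.20 and 1.01 with shNFIB.

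Against the control, 2 of 40 members passed 2-fold in shMLL1 cells at day 5, both higher, against 9.28% of all genes in either direction. *Pnpt1*, the polynucleotide phosphorylase of the mitochondrial RNA degradation complex, was at 32.2 RPKM in shMLL1 and 10.6 in shControl cells (log2 ratio 1.60, 1.49 to 1.72), and at 17.7 and 10.8 at day 0. *Ppargc1a* was the other one, at 1.00 (0.80 to 1.21). In shMLL1 cells at day 0, *Fastkd5*, known to be needed where mitochondrial transcripts are cut without a tRNA at the junction, was the only member past 2-fold, at 4.52 RPKM beside 2.17 in shControl cells. In shKDM4D and shNFIB cells at day 5 *Ppargc1b* was lower, at 0.336 and 0.269 RPKM beside 1.15 in shControl cells, and *Pprc1* was higher in shNFIB cells, at 4.58 beside 2.07 RPKM.

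Nuclear partners of the mitochondrial products were compared in the same way. For 73 expressed genes of nuclear subunits of complexes I, III, IV and V the median log2 ratio of day 5 over day 0 was 0.27, -0.04, 0.35 and 0.23 for the shControl, shKDM4D, shNFIB and shMLL1 lines, with at most 4 of 73 past 2-fold in any line, against 17.6% to 27.3% of all genes. All genes above 1 RPKM had medians of 0.03, 0.03, 0.09 and 0.17 in the same order. In shMLL1 cells 53 of the 73 were higher at day 5, where all 13 mitochondrial mRNAs were lower. For 78 mitochondrial ribosomal proteins, which join the 2 rRNAs in the ribosome, the medians were -0.08, -0.25, 0.20 and 0.06, with at most 1 of 78 past 2-fold, against the same background. Over shControl at day 5, the subunits had medians of -0.33, -0.02 and -0.01 for the shKDM4D, shNFIB and shMLL1 lines, and the ribosomal proteins -0.19, 0.24 and 0.23, beside -0.13, -0.17 and -0.81 for the 13 mitochondrial mRNAs. The medians of all genes above 1 RPKM in these comparisons were 0.0077, 0.09 and 0.07.

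Among these partners, *Ndufv3*, an accessory subunit of complex I, rose in every line, past 2-fold in 3 of them. It was at 27.9 RPKM at day 0 and 71.7 at day 5 in shControl cells, 20.6 and 52.4 with shNFIB and 19.2 and 75.5 with shMLL1, and its log2 ratio was 0.88 in shKDM4D cells. *Ndufa7*, another complex I subunit, and *Atp5e*, a subunit of the ATP synthase, rose in shMLL1 cells, with log2 ratios of 1.02 and 1.07. *Cox6a2*, *Cox7a1* and *Cox8b* are forms of complex IV subunits known from heart and muscle, and they were at or below 5.47 RPKM in every library. *Cox8b* had 27 reads in day 5 shControl cells, 1 in day 5 shKDM4D cells and 0 in day 5 shNFIB and shMLL1 cells. From day 0 to day 5 *Cox6a2* went from 99 reads to 1 in shControl and from 36 to 4 in shKDM4D cells. In the other lines it was higher at day 5, with 8 and 13 reads in shNFIB and 4 and 52 in shMLL1 cells. *Cox4i1*, the common form of complex IV subunit 4, was lower in shKDM4D than in shControl cells at day 5, at 87.9 beside 197.6 RPKM. Of the ribosomal proteins, *Mrps6* rose in shControl cells from 56.2 to 183.6 RPKM and in shKDM4D cells from 89.2 to 262.6, and *Mrpl24* rose in shMLL1 cells from 8.61 to 17.3.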

How the data were processed

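RNA-seq libraries of total RNA from 8 cultures (RNeasy columns, which keep little RNA of tRNA length; SMARTer kit, stranded according to the methods) were processed by the authors with CLC Genomics Workbench against mouse GRCm38 (mm10), and RPKM values per gene symbol were deposited. Strand and multi-match settings are not given in the sources used here. RPKM was multiplied by the GENCODE M21 exon length and divided by the value of 1 read; 96.0% to 96.4% of values between 1 and 1000 reads came out whole (within 0.02). With 1 library per group no test was run: log2 ratios of RPKM carry exact conditional binomial 95% intervals, and shares exact Clopper-Pearson intervals, which cover counting error only. PCR copies and differences between cultures are not covered. A call was a ratio past 2-fold (alternative 1.5-fold), set beside the 11513 genes above 1 RPKM in at least 1 library. Scales tried were median-of-ratios, quantile, nuclear protein coding reads, *Gapdh* and a pseudocount of 1. All mRNAs and rRNAs were named, tRNAs from a median of 100 reads, and of the nuclear lists the members past 2-fold and above 1 RPKM, at most 5 per list and comparison; *mt-Td*, *mt-Tv*, *Tfam*, *Tfb2m* and *Polrmt* were named besides. Members and lists were chosen with earlier results of these data known. Nuclear copies were found with blastn 2.17.0 (identity of 90% or more over 100 bases or more) among annotated transcripts. The read recovery and intervals were tested on simulated data. Python 3.11.15, numpy 2.4.6, pandas 2.3.3 and scipy 1.17.1 were used.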

Additional observations from a re-analysis of the deposited data

Results flagged for a closer look

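Changes from day 0 to day 5 in the median of the 13 mRNAs and in the summed rRNA reads were screened. Those with opposite signs in shControl cells and in a knockdown line, each with an interval on 1 side of 0, were picked out. Single genes were not part of this screen. With 1 library per line and day none of these differences was tested. The median log2 ratio of the 13 mitochondrial mRNAs was -0.40 in shMLL1 and 0.71 in shControl cells. The log2 ratio of the summed rRNA reads was -0.41, -0.19 and -0.84 for the shKDM4D, shNFIB and shMLL1 lines, and 0.16 in shControl cells. The sum in shKDM4D cells was 0.06 relative to *Gapdh*.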

How the results depend on the processing

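Of the 10 medians over the 13 mRNAs, 8 kept their direction under every setting, and those of shNFIB day 5 over day 0 and of shKDM4D over shControl at day 0 turned relative to *Gapdh*. The ranges were 0.54 to 0.73 and -0.52 to -0.40 for day 5 over day 0 in shControl and shMLL1 cells, and -1.17 to -0.76 for shMLL1 over shControl at day 5. Scaling moved the median of all genes by -0.09 to 0.06 with median-of-ratios factors, by -0.107 to -0.00057 with nuclear protein coding reads and by -0.56 to 0.64 with *Gapdh*, whose own level ran from 159 to 326 RPKM. Relative to *Gapdh* the medians of day 5 over day 0 were 0.63, -0.20 and -0.52 for the shKDM4D, shNFIB and shMLL1 lines, those over shControl at day 0 were -0.026, 0.81 and 0.050 for the shKDM4D, shNFIB and shMLL1 lines, and those at day 5 were -0.12 and -1.17 for shNFIB and shMLL1. Under quantile normalization the medians of day 5 over day 0 were 0.54 in shControl, 0.16 in shNFIB and -0.50 in shMLL1 cells, those over shControl at day 0 were 0.34 in shKDM4D and 0.18 in shMLL1 cells, and that of shMLL1 at day 5 was -0.76. With median-of-ratios scaling, day 5 over day 0 gave 0.34 in shNFIB and -0.49 in shMLL1 cells, knockdown over shControl gave 0.14 and 0.32 for shNFIB and shMLL1 at day 0, and -0.25 and -0.87 at day 5. Per nuclear protein coding read, day 5 over day 0 gave 0.62 in shControl, 0.31 in shNFIB and -0.51 in shMLL1 cells, and day 0 over shControl gave 0.33 in shKDM4D and 0.13 in shNFIB cells. Without the 10 mRNAs that overlap another mitochondrial gene, the 3 left gave 0.51, 0.35 and 0.51 over shControl at day 0 in shKDM4D, shNFIB and shMLL1 cells, and -0.076 and -0.88 at day 5 in shNFIB and shMLL1 cells.

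Counts past 2-fold in day 5 over day 0 became 10 in shControl, 1 in shNFIB and 4 in shMLL1 cells at 1.5-fold, and 12 in shMLL1 over shControl at day 5. Counts under other scalings were added after seeing the data: in shMLL1 day 5 over day 0 the count was 0 under quantile normalization, in shMLL1 over shControl at day 5 it was 3 with median-of-ratios factors and 12 relative to *Gapdh*, and in shNFIB over shControl at day 0 it was 2 relative to *Gapdh*. A pseudocount of 1 changed none of the signs. Without the RPKM filter, 25.3% to 46.6% of all genes passed 2-fold. The causes were not tested, and no ratio of summed tRNA reads was run. No paired analysis was possible because each line and day has 1 library and the 4 lines, which carry different knockdowns, were not taken as replicates of a day. The tRNA reads were too few at this depth to compare; clone, culture and library cannot be told apart from the knockdown or the day.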

Other observations

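Ratios between neighbouring genes within a library do not change with a factor applied to the whole library, though quantile normalization can change them. *mt-Nd6* over *mt-Nd5*, whose ends overlap on opposite strands, lay between 1.03 and 1.18 in RPKM over the 8 libraries. *mt-Nd4l* over *mt-Nd4* lay between 0.557 and 0.627, and *mt-Atp8* over *mt-Atp6* between 0.761 and 0.933. *mt-Rnr2* over *mt-Rnr1* was 1.08 to 1.197 in the day 0 libraries and 1.27 to 1.54 in the day 5 libraries, the highest value being that of shMLL1 cells. By RPKM among all genes, *mt-Atp6* had rank 3 in the 4 day 0 libraries and rank 9 in day 5 shMLL1 cells.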
